A study of Mus musculus with 7 samples.

Results

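The genes described are 38 members of the NF-kB pathway, comprising its subunits, its inhibitors, the kinases and adaptors that feed it and targets that TNF induces. They were taken from a fixed list of symbols and matched by Ensembl identifier to 38 of the 53465 genes in the count table. All 38 had reads in every one of 7 libraries and passed the filter on low counts, as did 14784 genes in all. The libraries were made from total RNA of CD4+CD25+ cells, a population enriched for regulatory T cells (Tregs) that can also hold activated T cells, sorted from mouse liver. Wild type C57BL/6 mice were fed a normal control diet (WT_NCD, 2 libraries) or a methionine/choline-deficient diet, a model of fatty liver disease (WT_MCD, 2 libraries). Mice lacking CD73 received the deficient diet (KO_MCD, 3 libraries). Feeding lasted 4 weeks in all groups. CD73, encoded by Nt5e, is a surface enzyme that makes adenosine, and the study asked what it does in liver Tregs. The labels do not state the age or sex of the mice, how the CD73 allele was made, or whether each library is 1 animal. The p-values therefore reflect the spread of these libraries alone, and that spread may be technical. CD73-deficient mice on the control diet were not analysed here.

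NF-kB is a family of dimeric transcription factors built from 5 subunits, encoded by Nfkb1, Nfkb2, Rel, Rela and Relb. In resting cells IkB proteins hold the dimers in the cytoplasm. TNF, IL-1, Toll-like receptor ligands and antigen receptors activate an IkB kinase that marks IkB for destruction, and the freed dimers enter the nucleus and bind kB sites. Among the genes they switch on are their own inhibitors, so the response limits itself. A slower, non-canonical arm runs from CD40, the lymphotoxin beta receptor and related receptors through the kinase NIK, which TRAF3 keeps low, to the processing of the Nfkb2 product. In T cells c-Rel and RelA take part in the formation and upkeep of Tregs, and in macrophages the same pathway drives inflammatory cytokines.

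Promoter windows of 300 bases, from 250 before to 50 after a start site, were available for 30 of the 38 members from RefSeq on GRCm38.p6. No window was available for Nfkb1, Relb, Nfkbiz, Cd40, Cd83, Ripk2, Map3k8 and Ikbkb. The kB consensus, searched on both strands, was found in 14 of these 30 genes (46.7%), against 2581 of all 27025 genes with a window (9.55%). In a second list of other pathway genes, described below, it was in 15 of 46 with a window (32.6%). Another spelling, GGGNNTTTCC on both strands, overlaps the consensus without being contained in it. It was in 9 of the 30 (30.0%), in 7 of the 46 (15.2%) and in 1.89% of all genes. The loose spelling GGGNNNNNCC, which contains the consensus, was in 23 of the 30 (76.7%), in 36 of the 46 (78.3%) and in 53.5% of all. Members with several windows had several chances to match, and by windows the consensus was in 19 of 39 (48.7%) against 8.46% of all. These shares describe letters in a window and say nothing of binding, and the member list was chosen to include targets of the pathway. The 5 windows shown belong to the members with a match and the smallest p in any comparison. Each is written 5′ to 3′ in the direction of transcription, with the consensus matches in capitals, and overlapping matches run together.
Traf3, chr12:111166120-111166419, plus strand: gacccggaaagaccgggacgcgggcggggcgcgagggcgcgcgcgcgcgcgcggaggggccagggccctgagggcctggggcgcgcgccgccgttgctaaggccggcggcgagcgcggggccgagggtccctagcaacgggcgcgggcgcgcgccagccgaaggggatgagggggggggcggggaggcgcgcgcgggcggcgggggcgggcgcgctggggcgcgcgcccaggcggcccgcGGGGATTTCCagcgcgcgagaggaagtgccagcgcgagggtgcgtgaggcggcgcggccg
Nfkbid, chr7:30422156-30422455, plus strand: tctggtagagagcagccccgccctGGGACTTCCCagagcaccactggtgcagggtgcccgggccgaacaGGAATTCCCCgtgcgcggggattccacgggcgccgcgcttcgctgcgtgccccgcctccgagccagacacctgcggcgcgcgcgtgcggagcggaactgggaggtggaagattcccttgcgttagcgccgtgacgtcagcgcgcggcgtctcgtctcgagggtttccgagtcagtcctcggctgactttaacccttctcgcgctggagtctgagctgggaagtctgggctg
Nfkb2, chr19:46304487-46304786, plus strand: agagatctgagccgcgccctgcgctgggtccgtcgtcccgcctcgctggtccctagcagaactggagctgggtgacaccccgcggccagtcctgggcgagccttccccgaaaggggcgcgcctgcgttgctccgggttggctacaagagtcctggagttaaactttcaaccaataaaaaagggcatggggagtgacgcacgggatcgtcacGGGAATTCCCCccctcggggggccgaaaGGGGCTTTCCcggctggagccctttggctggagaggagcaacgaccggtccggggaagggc
Nfkbie, chr17:45555450-45555749, plus strand: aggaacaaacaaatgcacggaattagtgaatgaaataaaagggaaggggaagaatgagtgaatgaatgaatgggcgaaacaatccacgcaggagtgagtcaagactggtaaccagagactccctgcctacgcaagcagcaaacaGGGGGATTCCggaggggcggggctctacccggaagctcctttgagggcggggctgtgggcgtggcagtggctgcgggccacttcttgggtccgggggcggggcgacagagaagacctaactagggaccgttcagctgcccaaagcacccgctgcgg
Rel, chr11:23770920-23771219, minus strand: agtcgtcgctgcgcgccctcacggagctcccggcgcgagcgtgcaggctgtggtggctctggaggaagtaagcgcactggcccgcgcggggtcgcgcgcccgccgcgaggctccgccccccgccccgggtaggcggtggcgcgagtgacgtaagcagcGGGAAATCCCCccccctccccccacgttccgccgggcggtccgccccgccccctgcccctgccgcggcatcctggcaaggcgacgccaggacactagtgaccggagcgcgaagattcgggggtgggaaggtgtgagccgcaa
The match of Traf3 began 10 bases before the start site. Nfkb2 had a pair of overlapping matches beginning 39 and 38 bases before its start site and another 11 bases before it, the shown window being 1 of 3 for this gene. In Nfkbid, also with 3 windows, matches began 226 and 181 bases before the start site. That of Nfkbie began 106 bases before it, and those of Rel, overlapping, 92 and 91 bases before it.

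**Figure D1:**
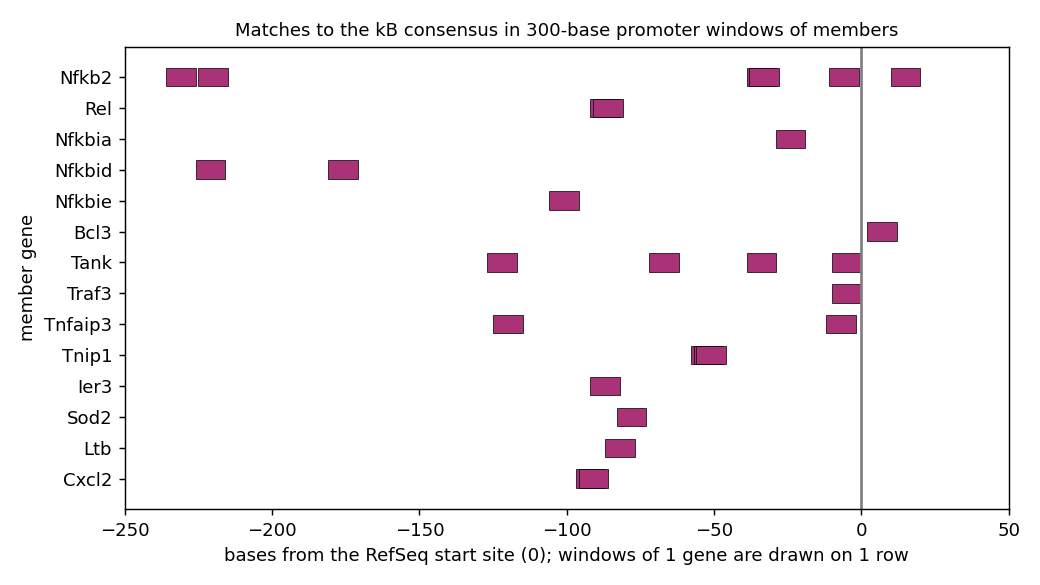
Positions of kB consensus matches in the promoter windows of the members that had one, in bases from the start site (x axis, 0 is the start site); each row is a gene and each mark a match. The match of Traf3 begins 10 bases before its start site.

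Total counts ran from 19731501 to 24398738 per library. Values below are CPM (read counts scaled to the library total, after TMM scaling), given in the order of replicates. Nt5e, the deleted gene, had 243 and 241 CPM in WT_NCD, 177 and 87.6 in WT_MCD and 5.88, 14.5 and 6.43 in KO_MCD; the KO_MCD libraries were the lowest, as their labels say. All 11 T cell and Treg markers were counted in every library, with Cd4 between 610 and 2137 CPM and Foxp3 between 108 and 287 CPM. Markers of other cells were present too. The summed level of 14 macrophage and Kupffer cell markers (13 of them counted in every library, Timd4 at 0 in some) was 1181 to 10817 CPM in WT_NCD, 2421 to 32949 CPM in WT_MCD and 7424 to 12706 CPM in KO_MCD. That of 10 B cell markers was 130 to 325, 347 to 518 and 419 to 1299 CPM, in the same order of groups. Dendritic cell markers (12, of which 10 counted in every library) summed to 242 to 341, 631 to 1290 and 684 to 1575 CPM, and NK cell markers (9, of which 4 counted in every library) to 38.2 to 51.1, 138 to 318 and 147 to 162 CPM. Monocyte and neutrophil markers (11, of which 8 counted in every library) summed to 992 to 1563, 1369 to 3019 and 987 to 1259 CPM. In sorted bulk RNA, fewer cells of a type and less RNA per cell cannot be told apart.

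The list spanned a wide range of levels. Compared per length, as CPM per kilobase of annotated exon averaged over the 7 libraries, Nfkbia stood first at 1162, followed by Ltb at 539, Cd83 at 434, Ccl3 at 371 and Tnfaip3 at 264. Bcl2a1b stood last at 2.05. Nfkbia and Tnfaip3 encode well known brakes on the pathway, IkB-alpha and the ubiquitin-editing enzyme A20. A difference of more than 5-fold between the highest and lowest library was seen for 18 members. It was less than 2-fold for 6, Cflar, Ikbkb, Tnip1, Icam1, Nfkb1 and Tank.

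**Figure D2:**
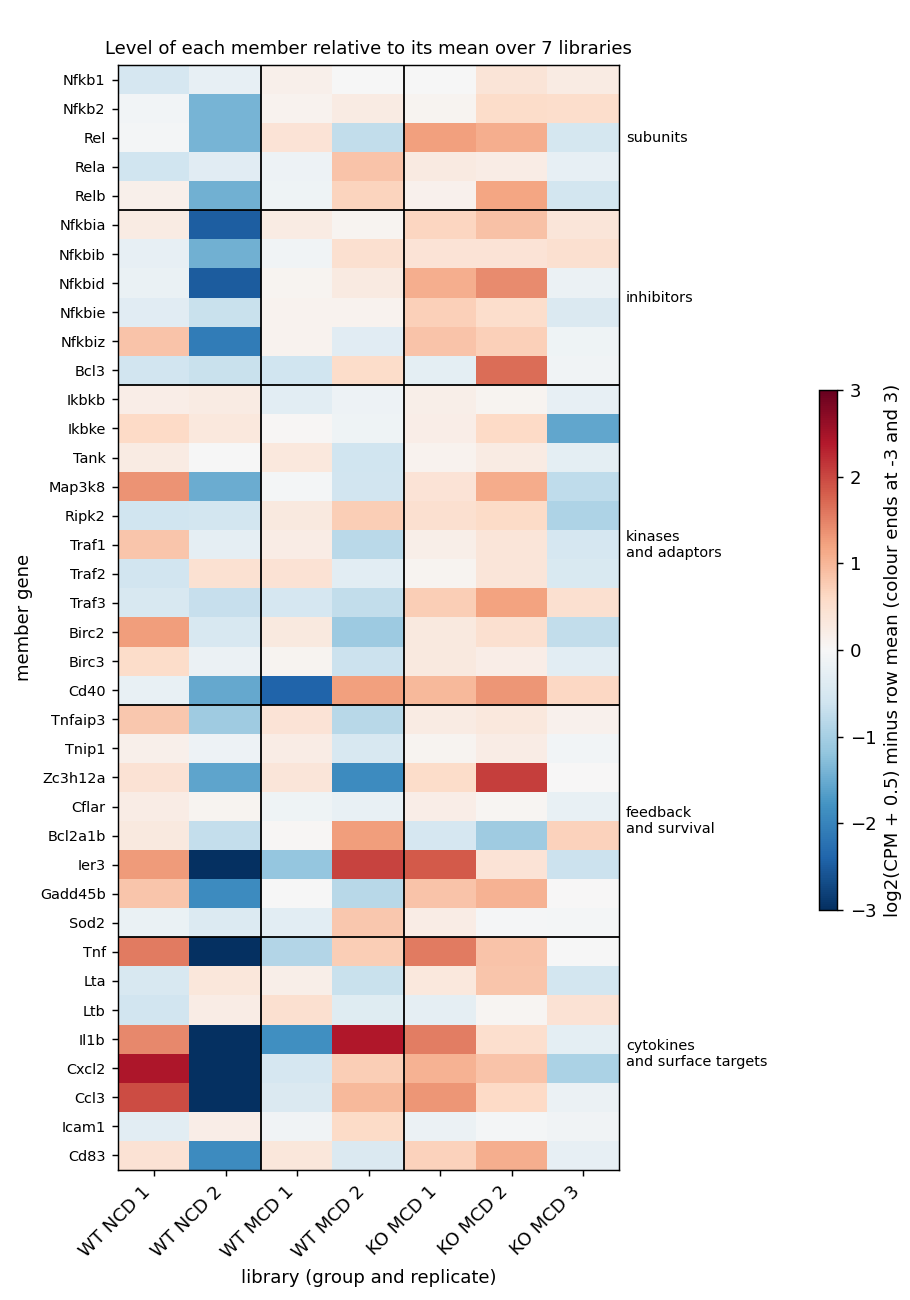
Deviation of log2(CPM + 0.5) of each of the 38 members (rows, grouped by role) from its own mean over the 7 libraries (columns, by group and replicate); the colour ends at -3 and 3, and the deviations of Tnf, Il1b, Cxcl2, Ccl3 and Ier3 in WT_NCD replicate 2, which lie below -3, are drawn at that limit. WT_NCD replicate 2 is the lowest library for 19 of the 38 members.

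The 5 subunits were all expressed. On the scale of CPM per kilobase, Nfkb2 (32.6), Rel (30.3) and Rela (26.6) had the highest mean levels, with overlapping ranges over the libraries of 11.4 to 44.4, 9.60 to 58.9 and 16.6 to 45.7. Nfkb1 had 12.1 (8.36 to 15.4) and Relb 4.71 (1.43 to 9.46). All 5 had higher fitted levels in WT_MCD than in WT_NCD, with a median log2 fold change of 0.78, and none passed the test. Between the same groups, 11 of 12 dendritic cell markers, 9 of 9 NK cell markers and 10 of 10 tested monocyte and neutrophil markers also had higher fitted levels. The part of these cells in the diet differences of the subunits, the inhibitors, Tnip3 and Tnfrsf1b was not tested.

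Rela, which encodes the main activating subunit p65, had 51.0 and 61.5 CPM in WT_NCD, 70.0 and 140 in WT_MCD and 93.3, 90.1 and 65.2 in KO_MCD. Both WT_NCD libraries lay below all 5 libraries of the deficient diet, and WT_MCD replicate 2 stood above the rest. By edgeR's quasi-likelihood test the log2 fold change of WT_MCD against WT_NCD was 0.90 (SE 0.41, adjusted p = 0.808). Without WT_MCD replicate 2 it was 0.32. Between KO_MCD and WT_NCD the edgeR value was 0.56 (SE 0.38, adjusted p = 0.686).

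Nfkb2, the precursor of p52 in the non-canonical arm, had 131 and 52.3 CPM in WT_NCD, 149 and 165 in WT_MCD and 146, 203 and 200 in KO_MCD. Here too the control diet gave the lowest values, with the second WT_NCD library far below the first. Its log2 fold change was 0.78 (SE 0.45, adjusted p = 0.818) between wild type diets and 1.0 (SE 0.42, adjusted p = 0.554) for KO_MCD against WT_NCD, a comparison in which diet and genotype differ together. Without WT_NCD replicate 2 these were 0.27 and 0.49.

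Nfkb1, which encodes p105 and p50, was the steadiest subunit, at 101 and 120 CPM in WT_NCD, 160 and 142 in WT_MCD and 141, 185 and 170 in KO_MCD. Both WT_NCD libraries lay below the other 5. The edgeR log2 fold changes against WT_NCD were 0.45 (SE 0.29, adjusted p = 0.829) for WT_MCD and 0.59 (SE 0.27, adjusted p = 0.573) for KO_MCD.

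Rel, the gene of c-Rel, had 181 and 71.7 CPM in WT_NCD, 250 and 112 in WT_MCD and 440, 400 and 131 in KO_MCD. Each group held a high and a low library, and the 3 groups overlapped. By edgeR its log2 fold change was 0.52 (SE 0.69, adjusted p = 0.988) between wild type diets, 0.84 (SE 0.65, adjusted p = 1) between genotypes on the deficient diet and 1.36 (SE 0.66, adjusted p = 0.585) between KO_MCD and WT_NCD. Relb, whose product pairs with p52, had 17.7 and 5.54 CPM in WT_NCD, 14.6 and 25.5 in WT_MCD and 17.4, 36.7 and 10.7 in KO_MCD, again with overlap between all groups. Its edgeR log2 fold changes were 0.79 (SE 0.81, adjusted p = 0.957) for WT_MCD against WT_NCD, 0.11 (SE 0.73, adjusted p = 1) for KO_MCD against WT_MCD and 0.90 (SE 0.75, adjusted p = 0.783) for KO_MCD against WT_NCD. The ratio of Rel to Rela reads within a library ran from 0.80 in WT_MCD replicate 2 to 4.72 in KO_MCD replicate 1, and it was 3.54 and 1.16 in the 2 WT_NCD libraries. The 2 WT_MCD libraries, at 3.57 and 0.80, were nearly as far apart as any.

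**Figure D3:**
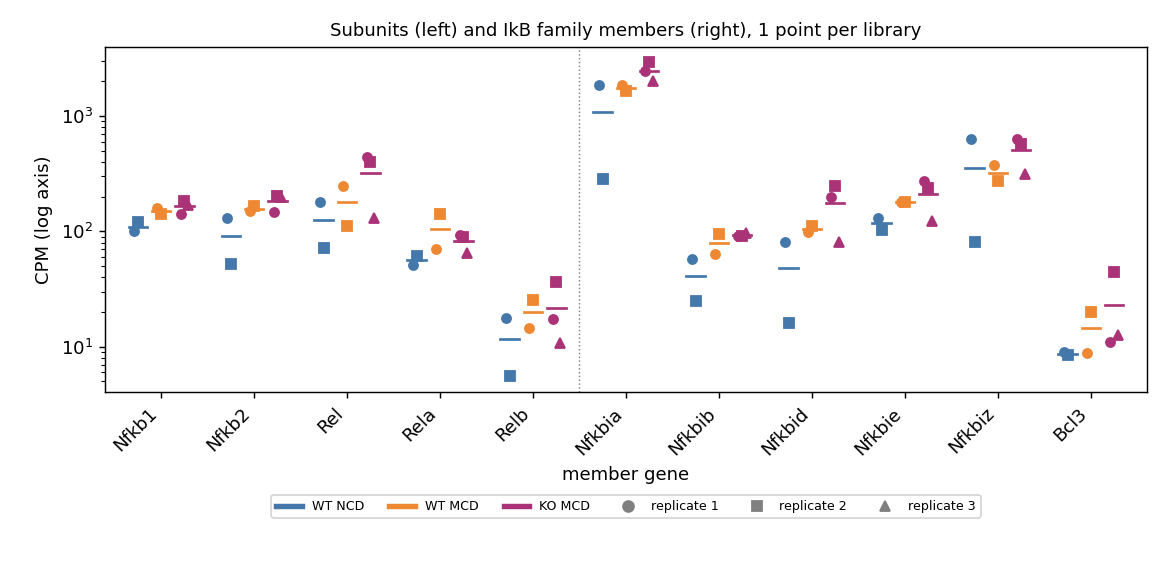
CPM on a log axis (y) of the 5 subunit and 6 inhibitor genes (x), 1 point per library, coloured by group with the shape giving the replicate and bars at group means. Nfkbia in KO_MCD (2026 to 2920 CPM) lies above all 4 wild type libraries (284 to 1868 CPM).

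The 6 IkB-family genes had the largest median difference of the roles in KO_MCD against WT_NCD, a log2 fold change of 1.19, with all 6 higher. Nfkbia, the fastest-induced inhibitor, had 1868 and 284 CPM in WT_NCD, 1865 and 1663 in WT_MCD and 2472, 2920 and 2026 in KO_MCD. All 3 KO_MCD libraries stood above all 4 wild type libraries, and WT_NCD replicate 2 stood far below every other. The log2 fold change by edgeR was 0.49 (SE 0.66, adjusted p = 1) for KO_MCD against WT_MCD, 1.20 (SE 0.68, adjusted p = 0.622) for KO_MCD against WT_NCD and 0.71 (SE 0.72, adjusted p = 0.954) for WT_MCD against WT_NCD. Without WT_NCD replicate 2 the latter 2 were 0.41 and -0.076, and without WT_NCD replicate 1 they were 3.12 and 2.64.

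Nfkbid, which encodes the nuclear protein IkBNS, had 80.4 and 16 CPM in WT_NCD, 98.6 and 113 in WT_MCD and 198, 250 and 81.6 in KO_MCD. The control diet libraries were the 2 lowest, although KO_MCD replicate 3 lay just above the higher of them. The edgeR log2 fold change of KO_MCD against WT_NCD was 1.87 (SE 0.74, adjusted p = 0.541), and 1.14 without WT_NCD replicate 2. That of KO_MCD against WT_MCD was 0.74 (SE 0.71, adjusted p = 1).

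Nfkbib, the gene of IkB-beta, had 57.7 and 24.9 CPM in WT_NCD, 63.9 and 95.8 in WT_MCD and 91.2, 91.4 and 96.5 in KO_MCD. The KO_MCD libraries were tightly grouped and above both WT_NCD libraries. Against WT_NCD the edgeR log2 fold change was 1.17 (SE 0.42, adjusted p = 0.507) for KO_MCD and 0.95 (SE 0.45, adjusted p = 0.808) for WT_MCD. Nfkbie, which encodes IkB-epsilon, had 131 and 104 CPM in WT_NCD, 178 and 180 in WT_MCD and 273, 239 and 124 in KO_MCD. WT_MCD lay above WT_NCD without overlap (log2 fold change 0.61, SE 0.41, adjusted p = 0.838 by edgeR), while the third KO_MCD library fell within the WT_NCD range. For KO_MCD against WT_NCD the edgeR log2 fold change was 0.85 (SE 0.38, adjusted p = 0.564).

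The last 2 of the family encode nuclear co-regulators. Nfkbiz had 630 and 80.1 CPM in WT_NCD, 373 and 275 in WT_MCD and 628, 569 and 317 in KO_MCD. Bcl3, which works with p50 and p52, had 8.42 to 20.1 CPM in the wild type libraries and 11.1, 44.9 and 12.6 CPM in KO_MCD. Both genes overlapped between WT_MCD and KO_MCD.

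Of the 11 kinases and adaptors, 8 had lower fitted levels in WT_MCD than in WT_NCD, with a median log2 fold change of -0.45. None of the 11 passed the test between these groups, and no difference between roles was tested. Ikbkb, the main kinase of IkB, had 304 and 312 CPM in WT_NCD, 213 and 237 in WT_MCD and 301, 282 and 222 in KO_MCD. Both WT_NCD libraries lay above all 5 others. The edgeR log2 fold change was -0.45 (SE 0.27, adjusted p = 0.826) for WT_MCD against WT_NCD and 0.25 (SE 0.25, adjusted p = 1) for KO_MCD against WT_MCD. Ikbke, a related kinase, had 109 and 89.8 CPM in WT_NCD and 74.5 and 65.8 CPM in WT_MCD, and KO_MCD spread from 24.1 to 109 CPM. Ripk2, the kinase that relays signals of the NOD receptors, stood on the other side, with 7.69 and 7.90 CPM in WT_NCD, 14.7 and 20.1 in WT_MCD and 16.7, 17.8 and 6.00 in KO_MCD. For WT_MCD against WT_NCD its edgeR log2 fold change was 1.16 (SE 0.71, adjusted p = 0.826).

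Traf3 differed most clearly among the members. It had 22.2 and 19.0 CPM in WT_NCD, 21.7 and 18.4 in WT_MCD and 52.6, 72.1 and 43.5 in KO_MCD. Every KO_MCD library was above every wild type library, and the 4 wild type libraries were close together. The group means were 20.6 ± 2.28 (SD, n = 2), 20.1 ± 2.32 (SD, n = 2) and 56.0 ± 14.6 CPM (SD, n = 3). By edgeR Traf3 was 2.79-fold higher in KO_MCD than in WT_MCD (log2 fold change 1.48, SE 0.39), the smallest unadjusted p of any member, and after adjustment over 14784 genes it did not pass (adjusted p = 1). Against WT_NCD it was 1.44 (SE 0.39, adjusted p = 0.389 by edgeR). DESeq2 called it in both comparisons, with log2 fold changes of 1.5 and 1.46 and adjusted p of 0.0258 and 0.00797. With any 1 library left out, the edgeR log2 fold change against WT_MCD stayed between 1.26 and 1.64. Only Traf3 and Nfkbia of the 38 had all KO_MCD libraries above all wild type libraries, and no member had all of them below, against 3.53% and 3.71% of all tested genes.

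Traf3 (ENSMUSG00000021277) lies on chromosome 12 at 111166370 to 111267153 of GRCm38, on the plus strand. Another annotated gene, 4930595D18Rik, overlaps it on the opposite strand, and whether counting used the strand was not stated in any source used here. Traf3 was present at 16.1% and 6.70% of the Traf2 level in WT_NCD, 7.83% and 11.3% in WT_MCD, and 24%, 27.5% and 29.1% in KO_MCD, as a ratio of CPM. B cells use the TRAF3 pathway heavily, and 9 of 10 B cell markers had higher fitted levels in KO_MCD than in WT_MCD. The B cell sum was 1299, 1244 and 419 CPM in the KO_MCD libraries and 347 and 518 CPM in WT_MCD. In KO_MCD replicate 3 the B cell sum was within the WT_MCD range and Traf3 was above both WT_MCD libraries. The genes of the immediate early and stress list also stood higher in KO_MCD than in WT_MCD for 8 of 10. The part of B cells or of this response in the Traf3 difference was not tested.

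**Figure D4:**
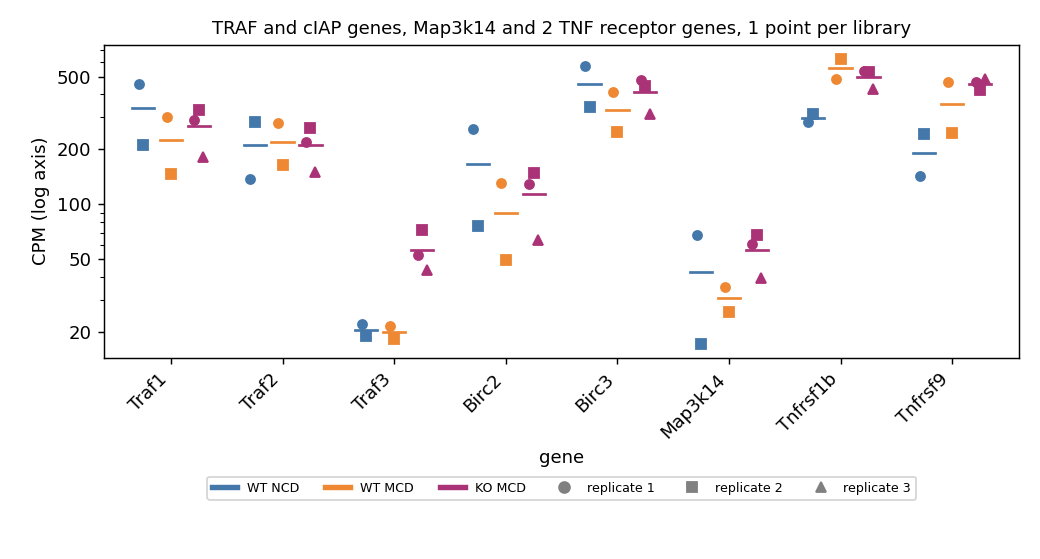
CPM on a log axis (y) of TRAF and cIAP genes, Map3k14 and 2 TNF receptor genes (x), 1 point per library, coloured by group with the shape giving the replicate and bars at group means. Traf3 alone among the TRAF and cIAP genes drawn separates KO_MCD (43.5 to 72.1 CPM) from the wild type libraries (18.4 to 22.2 CPM).

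The partners of TRAF3 did not share this pattern. Traf2 had 138 and 283 CPM in WT_NCD, 277 and 164 in WT_MCD and 219, 263 and 149 in KO_MCD. Birc2 and Birc3, the ubiquitin ligases cIAP1 and cIAP2 that TRAF2 brings to TRAF3 and NIK, ranged from 49.4 to 257 CPM and from 248 to 568 CPM, with WT_MCD replicate 2 lowest and WT_NCD replicate 1 highest for both. Traf1, an induced adaptor, had the same lowest and highest library, at 147 and 458 CPM. All 4 overlapped between every pair of groups. Map3k14, the gene of NIK and not on the member list, had 68.2 and 17.3 CPM in WT_NCD, 35.4 and 25.7 in WT_MCD and 60.5, 67.9 and 39.4 in KO_MCD. Its KO_MCD libraries all lay above both WT_MCD libraries, as for 8.37% of all tested genes, and overlapped those of WT_NCD. Cd40, a receptor upstream of TRAF3 found on B cells and macrophages, had 11.2 and 4.21 CPM in WT_NCD, 2.09 and 31.7 in WT_MCD and 26.5, 33.9 and 20.7 in KO_MCD. The 2 WT_MCD libraries held its lowest value and one of its highest. Map3k8, the kinase TPL2, ran from 45.3 to 327 CPM, highest and lowest both in WT_NCD. Tank, which binds TRAF proteins, ran from 137 to 261 CPM.

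Tnfaip3 led the feedback genes, with 3046 and 835 CPM in WT_NCD, 2332 and 980 in WT_MCD and 2084, 2175 and 1915 in KO_MCD. The second library was the low one in both wild type groups, and the 3 KO_MCD libraries were close together between those extremes. Group means were 1941 ± 1564 (SD, n = 2), 1656 ± 956 (SD, n = 2) and 2058 ± 132 CPM (SD, n = 3). None of the comparisons approached the threshold by edgeR, with log2 fold changes of -0.23 (SE 0.62, adjusted p = 1) for WT_MCD against WT_NCD, 0.31 (SE 0.57, adjusted p = 1) for KO_MCD against WT_MCD and 0.08 (SE 0.56, adjusted p = 0.996) for KO_MCD against WT_NCD. The direction of each depended on single libraries. Nfkbia reads were 0.61 and 0.34 times the Tnfaip3 reads in WT_NCD, 0.80 and 1.70 times in WT_MCD, and 1.19, 1.34 and 1.06 times in KO_MCD.

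Tnip1, which helps A20, held between 175 and 284 CPM in all libraries. Zc3h12a, the RNase Regnase-1 that destroys inflammatory mRNAs, had 41.8 and 9.96 CPM in WT_NCD, 39.9 and 7.98 in WT_MCD and 45.4, 132 and 30.9 in KO_MCD. Its low libraries were again the second of each wild type group. For KO_MCD against WT_MCD the edgeR log2 fold change was 1.54 (SE 0.98, adjusted p = 1). It was 3.16 without WT_MCD replicate 1, 0.80 without WT_MCD replicate 2 and 0.67 without KO_MCD replicate 2. Gadd45b, a stress gene that restrains cell death, had 299 and 45.4 CPM in WT_NCD, 168 and 95.4 in WT_MCD and 304, 347 and 170 in KO_MCD. KO_MCD and WT_MCD did not overlap, but their closest libraries nearly met (log2 fold change 1.05, SE 0.74, adjusted p = 1 by edgeR).

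Among survival genes, Cflar, the gene of the caspase-8 inhibitor cFLIP, was the most even member of the 38, from 154 to 211 CPM. Sod2, mitochondrial superoxide dismutase, had 185 and 159 CPM in WT_NCD, 170 and 371 in WT_MCD and 246, 209 and 205 in KO_MCD. WT_MCD replicate 2 carried the difference between wild type diets (edgeR log2 fold change 0.65, SE 0.39, adjusted p = 0.826), which was -0.02 without it. Ier3 had 58.4 and 1.29 CPM in WT_NCD, 10.5 and 99.6 in WT_MCD and 87.2, 31.9 and 15.2 in KO_MCD. Bcl2a1b, a copy of the anti-apoptotic gene A1, had 0.408 to 3.99 CPM. Its transcript is 97.9% identical to that of Bcl2a1a and 93.9% identical to that of Bcl2a1d, so reads could be split or lost between copies and its level is uncertain. Summed over the 3 copies the level was 79.2 and 28.7 CPM in WT_NCD, 82.9 and 153 in WT_MCD and 157, 106 and 165 in KO_MCD. Both control diet libraries were below the 5 libraries of the deficient diet, the nearest of which, WT_MCD replicate 1, was barely above.

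Of the 5 members with the widest range over the libraries, 4 were cytokine or chemokine genes (Ccl3, Il1b, Cxcl2 and Tnf) and the other was Ier3. Tnf had 247 and 5.37 CPM in WT_NCD, 45.6 and 140 in WT_MCD and 250, 152 and 82.7 in KO_MCD. Il1b had 329 and 8.59 CPM in WT_NCD, 33.2 and 641 in WT_MCD and 349, 172 and 99.5 in KO_MCD. Both genes were at their lowest in WT_NCD replicate 2, and for both the KO_MCD libraries lay inside the wild type range or at its top. The chemokine genes Cxcl2 and Ccl3, whose products draw neutrophils and other leukocytes, had 459 and 669 CPM in WT_NCD replicate 1 against 6.49 and 8.63 CPM in WT_NCD replicate 2. In the other 5 libraries Cxcl2 ran from 43.6 to 175 CPM and Ccl3 from 127 to 434 CPM. For all 4 genes the groups overlapped, and the 2 WT_NCD libraries were farther apart than any pair of group means.

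Macrophage marker levels also differed widely between the libraries. In replicate order the macrophage and Kupffer cell sum was 10817 and 1181 CPM in WT_NCD, 2421 and 32949 in WT_MCD and 12706, 9506 and 7424 in KO_MCD. Il1b and Ier3 put the 7 libraries in exactly this order, as did 0.122% of all tested genes. Tnf, Cxcl2 and Ccl3 did not, and none of these 3 was highest in WT_MCD replicate 2, where the sum was. Most of the sum was Lyz2, a lysozyme gene, at 26675 of the 32949 CPM in WT_MCD replicate 2 and 11324 of the 12706 CPM in KO_MCD replicate 1. Other markers on the list ordered the libraries differently. C1qa, a complement gene of tissue macrophages, had 587 CPM in WT_NCD replicate 1 and 115 to 162 CPM in KO_MCD. The median log2 deviation over the 14 markers was 1.36 in WT_NCD replicate 1 and -0.44, -0.39 and 0.042 in KO_MCD. The part of macrophage RNA in the cytokine levels was not tested.

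The targets more typical of lymphocytes were steadier than these cytokine and chemokine genes, although Cd83 still spanned 7.88-fold between its extreme libraries. Ltb, which encodes lymphotoxin beta, had 533 and 927 CPM in WT_NCD, 1103 and 616 in WT_MCD and 659, 823 and 1063 in KO_MCD. Lta, which encodes lymphotoxin alpha, ran from 11 to 32.2 CPM. The 2 genes flank Tnf on chromosome 17, with Ltb at 35194439 to 35196320, Tnf at 35199381 to 35202007 and Lta at 35203165 to 35205351 of GRCm38. Despite that closeness Tnf spanned 46.5-fold between its extreme libraries, Ltb 2.07-fold and Lta 2.92-fold. Cd83, a surface protein of activated lymphocytes and dendritic cells, had 1288 and 255 CPM in WT_NCD, 1209 and 708 in WT_MCD and 1543, 2013 and 803 in KO_MCD, with overlap between all groups. Icam1, the adhesion molecule, had 366 and 518 CPM in WT_NCD, 418 and 670 in WT_MCD and 400, 436 and 424 in KO_MCD. Its edgeR log2 fold change for KO_MCD against WT_MCD was -0.37 (SE 0.29, adjusted p = 1) and was 0.0042 without WT_MCD replicate 2.

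Taking the 38 members as a list, none was called over all genes by edgeR in any of the 3 comparisons, where 0.0% of the 14784 tested genes were called. For WT_MCD against WT_NCD, 20 were higher and 18 lower with a median log2 fold change of 0.15, beside 52.3% higher and a median of 0.04 over all tested genes. No member had an unadjusted edgeR p under 0.05 (6.0% of all genes did, 3.96% higher and 2.04% lower). DESeq2 called none, beside 2.44% of the 16099 genes with a DESeq2 adjusted p. Among the genes that edgeR tested, DESeq2 called 377 of 14656. The 2 groups did not overlap for 10 members, 7 higher (Rela, Nfkbib, Nfkb2, Ripk2, Nfkb1, Nfkbie and Nfkbid) and 3 lower (Ikbkb, Cflar and Ikbke), which is 26.3% of the list against 31.6% of all genes (16.8% higher and 14.8% lower). No difference between these shares was tested.

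For KO_MCD against WT_MCD, 29 of the 38 members were higher (76.3%) and 9 lower, with a median of 0.25 (0.14 without KO_MCD replicate 2 and 0.46 without replicate 3), beside 47.9% higher and a median of -0.03 over all tested genes. All 6 inhibitors, 9 of 11 kinases and adaptors and 4 of 5 subunits were on the higher side. Rela was the exception among the subunits, at -0.34 (SE 0.37, adjusted p = 1 by edgeR), and Nfkb1 and Nfkb2 were near no difference at 0.13 (SE 0.26) and 0.23 (SE 0.41), both with an edgeR adjusted p = 1. At an unadjusted p under 0.05 stood 1 member, Traf3, against 3.25% of all genes (1.2% higher and 2.04% lower). DESeq2 called the same gene, beside 0.73% of the 20285 genes with a DESeq2 adjusted p. Among the genes that edgeR tested, DESeq2 called 83 of 14685. Groups did not overlap for 3 members, Traf3, Gadd45b and Nfkbia, all higher in KO_MCD, or 7.89% of the list against 18.0% of all genes (8.37% higher and 9.66% lower). The immediate early and stress list summed to 9750 and 14429 CPM in WT_MCD, to 19437, 20908 and 13941 CPM in KO_MCD, while its part in the members' direction was not tested.

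For KO_MCD against WT_NCD, 26 were higher and 12 lower with a median of 0.36 (1.37 without WT_NCD replicate 1 and 0.19 without replicate 2), beside 52.8% higher and a median of 0.06 over all tested genes. Unadjusted p was under 0.05 for 4 members, Traf3, Nfkbib, Nfkbid and Nfkb2, all higher, against 8.97% of all genes (4.72% higher and 4.25% lower). The count rested on single libraries, being 16 without WT_NCD replicate 1, 2 without WT_NCD replicate 2 and 1 without KO_MCD replicate 1 or replicate 2. DESeq2 called Traf3, beside 4.86% of the 15347 genes with a DESeq2 adjusted p. Among the genes that edgeR tested, DESeq2 called 672 of 14486. No overlap was seen for 11 members (28.9% of the list, against 26.1% of all genes, 13.4% higher and 12.8% lower). Of these 10 were higher in KO_MCD, namely Traf3, Nfkbib, Nfkbid, Nfkb2, Nfkb1, Nfkbia, Bcl3, Cd40, Rela and Sod2, and Ikbkb was lower. This comparison shares its libraries with the other 2 and is no separate evidence.

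**Figure D5:**
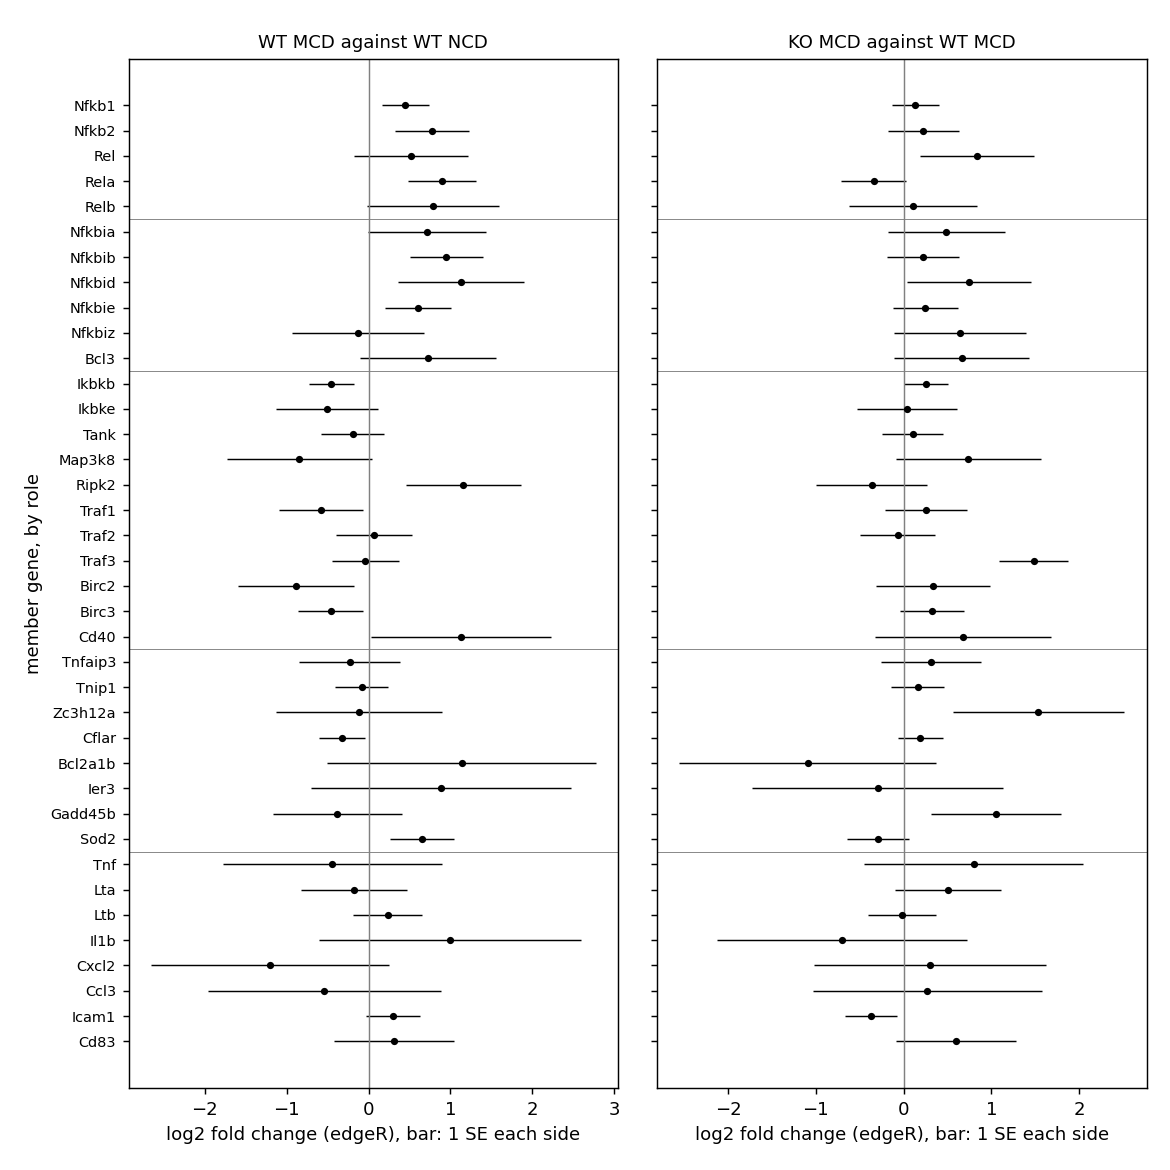
Fitted log2 fold change (x axis) with its standard error for each of the 38 members (rows, by role), for WT_MCD against WT_NCD (left) and KO_MCD against WT_MCD (right). The medians over the members are 0.15 and 0.25, and no member passed an adjusted p of 0.05 by edgeR.

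The libraries within a group differed more for these genes than for others in WT_NCD. There 22 of the 38 (57.9%) differed over 2-fold between the 2 libraries, against 36.6% of all tested genes, and replicate 1 was the higher for 30 of 38, against 43.7% of all genes. In WT_MCD and KO_MCD the members' shares, 14 and 19 of 38, were close to those of all genes, 35.9% and 51.9%. WT_NCD replicate 2 was the lowest library for 19 members (16.2% of all genes) and KO_MCD replicate 2 the highest for 12 (17.5% of all genes). In WT_NCD replicate 2 the macrophage sum and the immediate early and stress sum (6242 CPM, against 17484 CPM in replicate 1) were also the lowest of the 7, and the T cell and Treg sum (9722 CPM) was the highest. The part of cell makeup or handling in this spread was not tested. Without WT_NCD replicate 1, 30 of 38 members stood higher in WT_MCD than in WT_NCD (median 1.06) and 12 had an unadjusted p under 0.05, while without replicate 2 there were 18 and 2 (median -0.077). The direction of the list between wild type diets thus rested on single libraries. With any 1 of the 7 libraries left out, the median ran from -0.16 to 1.06.

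Another 56 genes of the pathway were read from a second list, also chosen with earlier results of these data known, and all were tested. None was called by edgeR over all genes in any comparison. At an unadjusted p under 0.05 stood 4 higher and 1 lower for WT_MCD against WT_NCD, 0 and 1 for KO_MCD against WT_MCD, and 7 and 2 for KO_MCD against WT_NCD. These are 8.93%, 1.79% and 16.1% of the 56, against 6.0%, 3.25% and 8.97% of all tested genes. Their median log2 fold changes were 0.12, 0.03 and 0.07. DESeq2 called 1, 0 and 3 of them, against 2.44%, 0.73% and 4.86% of the genes with a DESeq2 adjusted p in each comparison.

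Tnip3, an A20-binding inhibitor, had 7.28 and 11.2 CPM in WT_NCD, 21.2 and 82.3 in WT_MCD and 44.6, 36.3 and 20.8 in KO_MCD. Both control diet libraries were below the other 5. The log2 fold change of WT_MCD against WT_NCD was 2.48 (SE 0.73, adjusted p = 0.720 by edgeR, 0.0416 by DESeq2), and 1.19 without WT_MCD replicate 2. Tnfrsf1b, the TNF receptor TNFR2 that Tregs carry, had 281 and 312 CPM in WT_NCD, 485 and 624 in WT_MCD and 534, 529 and 429 in KO_MCD. It too was lower in both control diet libraries than in the other 5 (0.90, SE 0.28, adjusted p = 0.746 by edgeR for the wild type diets). Prkcq, the kinase PKC-theta that links the T cell receptor to NF-kB, had 264 and 340 CPM in WT_NCD, 144 and 171 in WT_MCD and 135, 149 and 196 in KO_MCD. This gene was higher in both control diet libraries than in any other, with edgeR log2 fold changes of -0.94 (SE 0.31, adjusted p = 0.777) for WT_MCD and -0.91 (SE 0.28, adjusted p = 0.449) for KO_MCD against WT_NCD. The T cell and Treg sum, 6278 and 9722 CPM in WT_NCD, stood at 8363 and 3668 in WT_MCD and at 4931, 5713 and 5510 in KO_MCD, and its part in the Prkcq difference was not tested.

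Tnfrsf9, the costimulatory receptor 4-1BB, had 142 and 242 CPM in WT_NCD, 464 and 244 in WT_MCD and 466, 422 and 485 in KO_MCD. The KO_MCD libraries were all above WT_NCD, while WT_MCD replicate 2 was at the WT_NCD level. Against WT_NCD the log2 fold change in KO_MCD was 1.25 (SE 0.38, adjusted p = 0.436 by edgeR, 0.0425 by DESeq2). Vcam1, an adhesion molecule of endothelium and Kupffer cells, had 254 and 37.0 CPM in WT_NCD, 24.2 and 69.6 in WT_MCD and 10.01, 19.3 and 11.1 in KO_MCD, the 3 lowest values. For KO_MCD its log2 fold change was -3.43 (SE 0.82, adjusted p = 0.330 by edgeR, 0.00185 by DESeq2) against WT_NCD, or -1.46 without WT_NCD replicate 1, and -1.80 (SE 0.79, adjusted p = 1 by edgeR) against WT_MCD, or -0.85 without WT_MCD replicate 2. The 10 endothelial and stellate cell markers (3 counted in every library) summed to 217 to 231 CPM in WT_NCD, 105 to 108 in WT_MCD and 80.4 to 132 in KO_MCD. Of 7 tested, 4 had lower and 3 higher fitted levels in KO_MCD than in WT_NCD. The part of endothelial and Kupffer cells in the Vcam1 difference was not tested. Bcl2a1d, the most abundant A1 copy, was also higher in KO_MCD than in WT_NCD (1.43, SE 0.44, adjusted p = 0.459 by edgeR). Tab3, an adaptor of the kinase TAK1, had 1 read and 0 reads in the WT_NCD libraries, 115 and 39 reads in WT_MCD, and 39, 4 and 236 reads in KO_MCD, and no fold is given against so few reads. DESeq2 called it for KO_MCD against WT_NCD (adjusted p = 0.0131).

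Between the 2 groups on the deficient diet, receptor adaptors were among the genes with the smallest p. Myd88, the adaptor of Toll-like and IL-1 receptors, had 141 and 270 CPM in WT_MCD, and in KO_MCD 91.6, 103 and 125 CPM (edgeR log2 fold change -0.95, SE 0.35, adjusted p = 1 by edgeR). The first of these WT_MCD libraries was near the KO_MCD range, and the value was -0.40 without WT_MCD replicate 2. Tradd, the adaptor of TNF receptor 1, had 81.9 and 61.0 CPM in WT_MCD, and in KO_MCD 39.1, 45.8 and 57.4 CPM (-0.59, SE 0.31, adjusted p = 1 by edgeR), and the value was -0.33 without WT_MCD replicate 1. Neither overlapped between the groups, as for 18.0% of all tested genes. All 14 macrophage and Kupffer cell markers and all 10 tested monocyte and neutrophil markers also had lower fitted levels in KO_MCD than in WT_MCD. The part of these cells in the Myd88 and Tradd differences was not tested.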

How the data were processed

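RNA-seq libraries of CD4+CD25+ mouse liver cells were compared between 3 groups of 2, 2 and 3. The authors deposited raw counts per gene, 1 column per library, for 53465 Ensembl identifiers, of which 53360 were found in a GENCODE annotation of GRCm38. Reads were aligned with HISAT2 2.1.0, per the submitters' processing notes. How reads were counted, with which annotation and strand setting, and from which kit was not given in the sources used here; 15 of the 38 members overlap another annotated gene, so reads of the pairs may not be told apart. The labels gave each library's group and number.

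The main test was the quasi-likelihood F test of edgeR 4.0.16 (R 4.3.3) on the counts as deposited, with TMM scaling, a low-count filter (filterByExpr, minimum 10) and 1 coefficient per group over all 7 libraries, leaving 14784 genes, with Benjamini-Hochberg adjustment over all of them and a threshold of 0.05. Libraries of a group varied with a coefficient of variation of 91.3% (common dispersion 0.833). No 2 libraries of a group agreed within sampling noise. CPM use TMM-scaled library sizes, and SD are between libraries. The method was tested on simulated data. Of 50 genes changed 2-fold it recovered 0 in each comparison. At 4-fold it recovered 1 of 50 for WT_MCD against WT_NCD, 9 for KO_MCD against WT_MCD and 1 for KO_MCD against WT_NCD. At 16-fold it recovered 25, 22 and 20 of 50 in the same order of comparisons, and at 64-fold 27, 29 and 29. A gene that did not pass may therefore still differ by 4-fold or more.

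Alternatives were DESeq2 1.42.0 on the unfiltered table, DESeq2's size factors, no filter, only the 2 groups compared, the replicate number as a block and each library left out. The members and lists were chosen with earlier results of these data known. In each comparison, log2 fold changes with SE and adjusted p are given for the 8 members with the smallest p, for Nfkbia, Tnfaip3 and the 5 subunits, and for the 4 other pathway genes with the smallest p. One gene that this rule names is not reported here. Genes named with levels for other reasons (Map3k14, Cd4, Foxp3) and the order of libraries by macrophage sum were chosen after their values were seen. Promoter sequences are RefSeq's, on GRCm38.p6.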

Additional observations from a re-analysis of the deposited data

How the results depend on the processing

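Calls over all genes depended on the tool and filter. DESeq2 called 393 genes for WT_MCD against WT_NCD, 148 for KO_MCD against WT_MCD and 746 for KO_MCD against WT_NCD, and edgeR without the low-count filter 54, 1 and 140, where edgeR with the filter called 0. DESeq2 called 1 member (Traf3) in each KO_MCD comparison, and 1 and 3 other pathway genes against WT_NCD. Without the filter edgeR called 1 other pathway gene, Vcam1 (-3.43 against WT_NCD).

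With 1 library left out at a time, the members' median ran from -0.16 to 1.06 for WT_MCD against WT_NCD, from 0.14 to 0.46 for KO_MCD against WT_MCD and from 0.19 to 1.37 for KO_MCD against WT_NCD. Directions turned for single genes. For WT_MCD against WT_NCD the ranges were -1.01 to 0.99 for Tnfaip3, -0.076 to 2.64 for Nfkbia, -0.19 to 1.34 for Rel and -0.02 to 1.09 for Sod2. Relb kept its direction in that comparison, at 0.19 to 1.86. For KO_MCD against WT_MCD the ranges were -0.51 to 0.57 for Relb, -0.64 to 0.0042 for Icam1, -0.72 to 0.24 for Rela and -0.18 to 1.11 for Tnfaip3. For KO_MCD against WT_NCD the range of Tnfaip3 was -0.56 to 1.30. Leaving out WT_NCD replicate 2 and WT_MCD replicate 2 together, chosen after seeing the data, gave -0.12 for Sod2 and -0.27 for Relb between wild type diets, 0.0038 for Icam1, 0.24 for Rela and -0.18 for Tnfaip3 between genotypes, and -0.56 for Tnfaip3 in KO_MCD against WT_NCD. The cause of these turns was not tested. Of 48 log2 fold changes of named genes, 33 kept their direction and their side of the threshold under every alternative run.

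The replicate numbers did not pair the libraries: deviations of same-numbered libraries correlated between -0.14 and 0.050. With the number as a replicate block, 0 members and 0 genes were called in any comparison, and the members' medians were 0.37, 0.47 and 0.71. With the wild type numbers crossed as a block, also chosen after seeing the data, 0 genes were called.

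With 2 or 3 libraries a group, the spread between libraries and not the depth limits these comparisons.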
